A study of Danio rerio with 8 samples.

Results

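Egg envelope zona pellucida (ZP) genes were followed across 8 liver arrays of adult zebrafish. Of 8 ZP gene symbols looked for, 6 were found as the single symbol of an array cluster (*zp3a.2*, *zp3b*, *zp3c*, *zp3*, *zp2.2* and *zp2.5*), out of 22653 genes with a cluster of their own. Where a gene has several clusters, the one with the highest mean over the 8 arrays was taken, but each of the 6 genes had 1 cluster. The symbols *zp2.1* and *zp2.3* stand only in clusters that carry several symbols and are described with the rest of the family.

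ZP proteins share a domain through which they polymerise into the extracellular coat around the egg. The zebrafish egg envelope, or chorion, is built from Zp2-type and Zp3-type proteins, and in zebrafish their genes are known to be transcribed in the growing oocyte, whereas in some other fish, such as medaka, egg envelope proteins are also made in the liver in response to estrogen. The liver of egg-laying fish is known for another egg product, the yolk precursor vitellogenin, which estrogen induces.

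Liver RNA of wild-type AB fish was hybridised to ZebGene 1.1 ST arrays, on which probes are summarised into transcript clusters, and the study asked how oligo-fucoidan (OF), an extract of brown seaweed, alters hepatic gene expression. Each of 2 batches, carried out as separate feeding experiments, holds 2 mock control samples and 2 samples of fish gavaged with OF. The dose was 300 mg/kg on 3 occasions each week, over 1 month. The labels give an age of 6 months for every fish and an age of 5 months when treatment began, and they say that 40 fish were divided between control and OF. Neither the labels nor the methods name the sex of the animals, each sample carries its own fish number, and no pooling of livers is mentioned.

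All signals are on a log2 scale, so that a difference of 1 is a doubling. The brightness of a cluster also depends on its probes, so signals were compared between arrays for a gene and not between genes. Array medians over all clusters lay between 2.11 and 2.13 in batch 1, and between 2.54 and 2.63 in batch 2. The files used here hold no detection calls. Liver markers were mostly bright on every array, with 12 of 12 hepatocyte genes above a signal of 5 on 7 arrays, and 11 of 12 on the first OF array of batch 1. They were not uniform, since *serpina1* ranged from 4.20 on that array to 11.78 on the second OF array of batch 2. In batch 1, 12 of 12 hepatocyte genes had a change with OF below 0 (median −0.34), while 46.2% of all clusters had one above 0. Of the 12, 1 was called over 2-fold at an unadjusted limma p under 0.05, where 3.47% of all clusters were called lower. It was *hpx*, the gene of the heme carrier hemopexin, by −2.22. In batch 2, 12 of 12 hepatocyte genes were above 0 (median 0.30), as were 53.5% of all clusters. By the same rule 0 of 12 were called, where 2.55% of all clusters were called higher and 3.12% lower. The arrays nevertheless differed in genes of other cells and states. The 5 estrogen-responsive liver genes, among them *vtg2*, had a median of 2.94 and 3.02 on the control arrays of batch 1 and of 2.65 on the second OF array of batch 2, against 10.19 to 13.55 on the other 5 arrays. The summed linear signal of 5 exocrine pancreas genes was 37.2 on the first OF array of batch 1 and 807 to 2458 on the rest. That of 3 erythrocyte genes was 34.3 and 29.4 on the OF arrays of batch 1, 116 and 260 on its control arrays, and 67.6 to 367 in batch 2, and the part of any of these lists in the ZP results was not tested. Fewer cells of a type and less RNA per cell cannot be told apart in such bulk samples.

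In the livers of batch 1 every one of the 6 ZP genes was brighter in the fish given OF, by 4.14 to 7.61 on the log2 scale. In batch 2 the same contrast gave −0.95 to −0.16, with control and OF arrays overlapping for each gene.

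Zp3-type proteins are, from work in mammals, the components of the egg coat first linked to sperm binding, and *zp3a.2* had the widest range of the 6 genes, 8.83. Its signal was 1.69 and 2.16 on the control arrays of batch 1, 10.49 and 8.59 on the OF arrays of batch 1, 3.55 and 6.23 on the control arrays of batch 2, and 6.93 and 1.66 on the OF arrays of batch 2. The OF fish thus held the brightest array, while 1 of them read 1.66, beside 1.69 in a batch 1 control, both close to the floor. *zp3b* measured 1.66 and 2.57 in control fish and 9.15 and 7.52 in OF fish of batch 1, and 4.53 and 6.17 in control fish and 6.25 and 2.79 in OF fish of batch 2. It is the only one of the 6 genes whose signals in batch 2 all lay above both control arrays of batch 1.

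For *zp3c* the batch 1 arrays read 1.91 and 1.85 in control and 7.18 and 4.86 in OF livers, and the batch 2 arrays 2.88 and 5.04 in control and 4.50 and 1.64 in OF livers. The second control array of batch 2 was brighter for *zp3c* than the second OF array of batch 1, which was seen for no other of the 6 genes. *zp3* read 1.68 and 1.76 in control and 7.59 and 7.25 in OF livers of batch 1, then 3.49 and 1.85 in control and 3.46 and 1.55 in OF livers of batch 2. The OF fish of batch 1 were closest to each other here, 0.33 apart, where the other genes were 1.63 to 2.74 apart.

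Zp2-type proteins form the other main family of the chorion. *zp2.2* gave 2.12 and 2.46 on control and 8.81 and 6.07 on OF arrays of batch 1, and 2.28 and 3.85 on control and 3.12 and 1.83 on OF arrays of batch 2. *zp2.5* gave 1.24 and 1.22 on control and 9.20 and 7.00 on OF arrays of batch 1, against 2.64 and 4.05 on control and 3.75 and 1.05 on OF arrays of batch 2. In batch 2 the clusters taken for these genes stayed below a signal of 5 on every array, as did *zp3*. The cluster labelled *zp2.1* and *zp2.5* did not, at 5.34 and 5.80 on control arrays and 5.54 on the first OF array of batch 2.

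**Figure D1:**
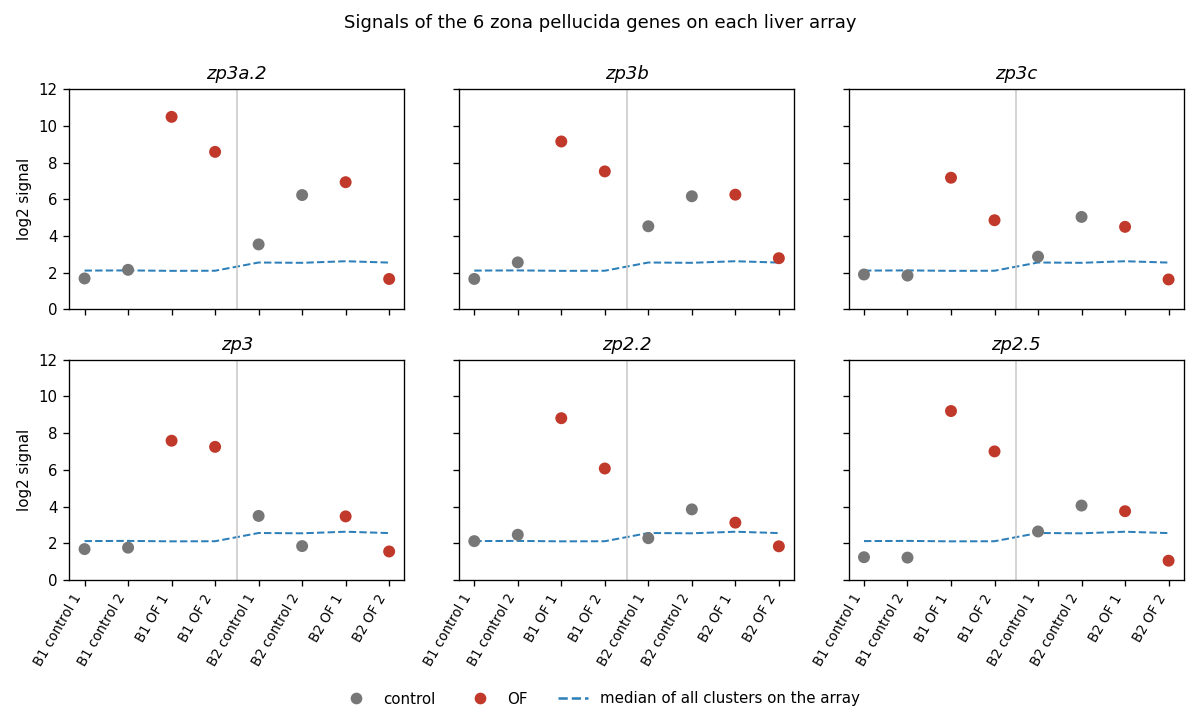
Log2 signal (y axis) of each of the 6 ZP genes on the 8 arrays (x axis; B1 and B2, batches 1 and 2). Grey points are control and red points OF arrays, and the dashed line joins the median of all clusters on each array. The OF arrays of batch 1 lie between 4.86 and 10.49, above all control arrays of batch 1, while the second OF array of batch 2 lies between 1.05 and 2.79.

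The order of arrays was shared by most of the genes. The first OF array of batch 1 was the highest of 8 for 6 of 6 genes, and the second OF array of batch 1 came next for 5 of 6. The second OF array of batch 2 was the lowest for 5 of 6 genes, but near the floor, where small gaps set the order. Within the control fish of batch 2, sample 2 exceeded sample 1 by 1.41 to 2.69 for 5 genes, while for *zp3* sample 2 was 1.64 lower than sample 1. Control fish of batch 1 lay near the floor, with 6 of 6 genes at or below the median of all clusters on the first array and 3 of 6 on the second.

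Group means followed one order for each gene, with the OF fish of batch 1 highest, then the control and the OF fish of batch 2, and the control fish of batch 1 lowest. For *zp3a.2* they were 9.54 ± 1.35, 4.89 ± 1.90, 4.30 ± 3.73 and 1.93 ± 0.33 (SD, n = 2). For *zp2.5* they were 8.10 ± 1.56, 3.35 ± 1.00, 2.40 ± 1.91 and 1.23 ± 0.015 (SD, n = 2). Neighbouring groups in this order often did not separate. The groups of batch 2 overlapped for 6 of 6 genes, the OF fish of batch 2 and the control fish of batch 1 for 5 of 6 (not *zp3b*), and the OF fish of batch 1 and the control fish of batch 2 for *zp3c*.

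Within batch 1 OF arrays were brighter for 6 of 6 genes at the methods' thresholds, a change over 2-fold and an unadjusted p under 0.05, where 3.26% of all 59300 clusters were called higher. The changes, with standard errors (SE) from limma, were 7.61 (SE 0.72) for *zp3a.2*, 6.22 (SE 0.68) for *zp3b* and 4.14 (SE 0.84) for *zp3c*. For *zp3* the change was 5.70 (SE 0.20), for *zp2.2* 5.15 (SE 0.99) and for *zp2.5* 6.87 (SE 0.80). These are ratios of 17.7-fold for *zp3c* to 196-fold for *zp3a.2* on the linear scale, measured against control signals close to the floor. The median change was 5.96 for the 6 genes and −0.03 for all clusters. Both OF arrays lay above both control arrays for 6 of 6 genes, as they did for 18.5% of all clusters. The unadjusted limma p-values ran from 1.07e-05 for *zp3* to 0.00803 for *zp3c*, and the adjusted ones (Benjamini-Hochberg, over all clusters) from 0.0642 to 0.28, so that 0 of 6 genes were called at an adjusted p, as 0% of all clusters were. Without the second OF array of batch 1 the changes ran from 5.30 for *zp3c* to 8.57 for *zp3a.2*. Without the first OF array they were smaller, from 2.98 for *zp3c* to 6.66 for *zp3a.2*. Each of these fits takes its spread from the 2 control arrays near the floor and assumes that the lone OF array varies like them. Counts of calls from these fits, given with the alternatives below, thus cannot show that the changes are firmer.

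In batch 2 the change was −0.59 (SE 2.00) for *zp3a.2*, −0.83 (SE 1.30) for *zp3b*, −0.89 (SE 1.22) for *zp3c*, −0.16 (SE 0.87) for *zp3*, −0.58 (SE 0.71) for *zp2.2* and −0.95 (SE 1.04) for *zp2.5*. The limma adjusted p-values were 0.87 to 0.983 and the unadjusted ones 0.408 to 0.863, and 0 of 6 genes were called in either direction by the methods' rule, where 2.55% of all clusters were called higher and 3.12% lower. The OF fish of batch 2 were far apart, the first exceeding the second by 1.29 for *zp2.2* and by 5.27 for *zp3a.2*. Without the second OF array of batch 2 the change was above 0 for all 6 genes, from 0.06 for *zp2.2* to 2.04 for *zp3a.2*, and without the first one it was negative for all 6, from −1.12 for *zp3* to −3.23 for *zp3a.2*.

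**Figure D2:**
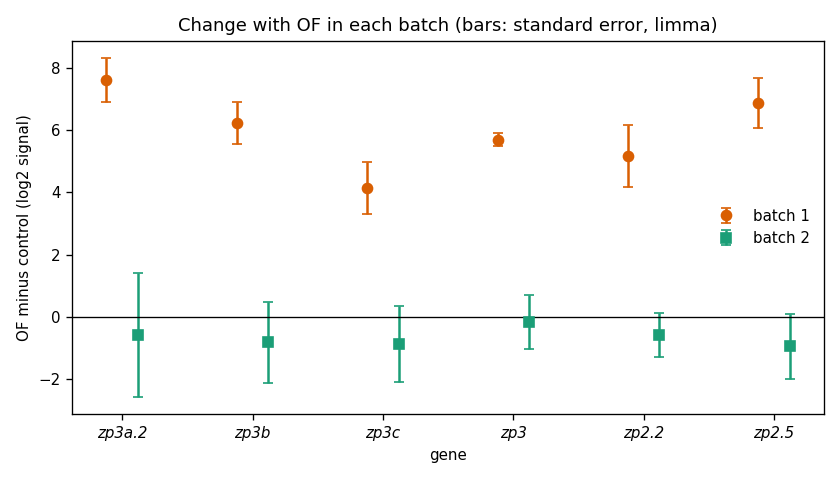
Change with OF (OF minus control, log2 signal, y axis) of each ZP gene (x axis) in batch 1 (circles) and batch 2 (squares), with bars of 1 standard error from limma. Batch 1 changes run from 4.14 to 7.61 and batch 2 changes from −0.95 to −0.16.

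The difference between batches was tested as an interaction over all 8 arrays. The OF change of batch 2 minus that of batch 1 was −8.21 (SE 2.49) for *zp3a.2*, −7.05 (SE 1.71) for *zp3b*, −5.03 (SE 1.72) for *zp3c*, −5.86 (SE 1.04) for *zp3*, −5.74 (SE 1.38) for *zp2.2* and −7.82 (SE 1.51) for *zp2.5*. All 6 passed an unadjusted limma p of 0.05 (0.00111 to 0.0247), as 6.61% of all clusters did in that direction, and 0 of 6 passed an adjusted one (0.127 to 0.267), as 0.00337% of all clusters did in that direction. Without the second control array of batch 2, *zp3a.2* and *zp3c* no longer passed the unadjusted threshold, and *zp3c* was also lost without either control array or the first OF array of batch 1 or the second OF array of batch 2. With batch as an additive term the change over both batches was 1.63 for *zp3c* to 3.51 for *zp3a.2*, with unadjusted limma p-values of 0.0562 to 0.236 and adjusted p-values of 0.955. None of the 6 genes was called, where 2.06% of all clusters were higher at an unadjusted p of 0.05. This count rests on 1 array, since 6 of 6 genes passed the unadjusted threshold without the second OF array of batch 2, as 3.24% of all clusters did upwards.

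The levels of batch 2 minus those of batch 1, with OF as a term, were −0.29 for *zp3b* to −2.10 for *zp2.2*, while the median of all clusters was 0.35 higher in batch 2. With single arrays left out the direction turned for *zp3a.2* (−2.50 to 0.74), *zp3b* (−1.32 to 1.11) and *zp3c* (−1.37 to 0.64). None of the 6 changes passed (unadjusted limma p of 0.142 to 0.859, adjusted p of 0.265 to 0.911), where 2.64% of all clusters were lower at an unadjusted p of 0.05. Fish and feeding changed together between the batches and cannot be told apart. Whether the arrays of the batches were also run apart is not stated.

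The rest of the ZP family on the array holds 10 clusters, of which *zp3.2*, *zpcx*, *zp3a.1*, *zp2.6* and *zp2l1* have a single symbol. By the methods' rule 9 of 10 were higher with OF in batch 1 and 0 of 10 were called in batch 2, beside the 3.26% and 2.55% of all clusters called higher. The first OF array of batch 1 was the highest for 10 of 10. *zp3a.1*, which neighbours *zp3a.2*, read 1.93 and 1.88 in control and 8.88 and 7.03 in OF livers of batch 1, and 2.94 and 4.22 in control and 5.89 and 1.85 in OF livers of batch 2. Its order of arrays was thus close to that of its neighbour.

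*zp3.2* was the exception in the family. It read 10.28 on the first OF array of batch 1 and 1.08 to 1.95 on the other 7 arrays, and its batch 1 change of 4.28 (SE 3.06) had an unadjusted limma p of 0.235. By contrast *zp3*, which lies between *zp3.1* and *zp3.2* on chromosome 17, was high in both OF fish of batch 1. The cluster shared by *zp3.1* and zgc:173556 read 10.05 and 6.76 there, so that these 3 neighbouring clusters differed in how far apart the OF fish were.

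In the RefSeq annotation of assembly GRCz12tu, *zp2.2*, *zp2.3*, *zp2.6*, *zp2.1* and *zp2.5* lie near one another on chromosome 20, with si:zfos-1505d6.3 between *zp2.3* and *zp2.6*. *zp3a.2* and *zp3a.1* are neighbours elsewhere on that chromosome, *zp3b* lies on chromosome 2 and *zp3c* on chromosome 1. Such tandem copies can share probes, and the genes of the *zp2* row are uncertain as separate measurements. In the array annotation the entry for cross-hybridisation was 0 and 1 for *zp3a.2*, which had the largest batch 1 change among the 6 genes found by symbol. It was also 0 and 1 for the cluster of si:dkey-241l7.2 and *zp2.3*, and 0 for all other ZP clusters. The *zp2.5* cluster, of 10 probes, carries a transcript accession that the current annotation names *zp2.1*, and the accession of the cluster labelled *zp2.1* and *zp2.5* is now *zp2.5* alone. The latter cluster read 1.99 and 1.91 in control and 10.45 and 7.22 in OF livers of batch 1, and 5.34 and 5.80 in control and 5.54 and 2.08 in OF livers of batch 2. Under either name the gene was thus high in the OF fish of batch 1 and low in the second OF fish of batch 2. Of the clusters that carry *zp2.3* among their symbols, the one whose accession is now *zp2.3* alone was higher with OF in batch 1 by 4.41 (SE 0.71). The other, now matched to genes named si:dkey-241l7, was higher by 7.44 (SE 0.64).

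**Figure D3:**
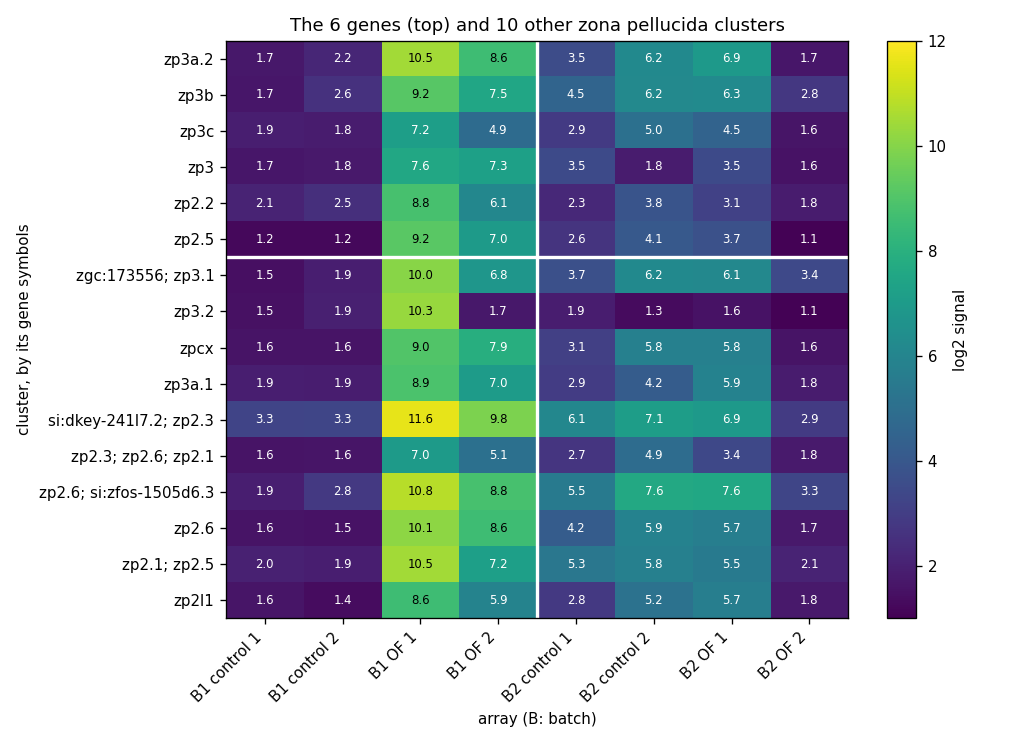
Log2 signal, by colour and as printed values, of the 6 ZP genes (above the white line) and the 10 other clusters of the family (rows) on the 8 arrays (columns; B1 and B2, batches 1 and 2). The first OF array of batch 1 is the highest of its row for all 16 clusters, and *zp3.2* is high on that array alone.

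Of 8 other genes of ZP-domain or egg surface proteins, 1 was called higher in batch 1 (3.26% of all clusters) and 0 in batch 2 (2.55%), and their median change in batch 1 was 0.01. The one called is the gene of Bouncer, a protein of the egg membrane that zebrafish sperm need for entry (listed as LOC101885477). It read 2.46 and 1.98 in control and 8.10 and 4.98 in OF livers of batch 1, and 2.75 and 4.79 in control and 4.27 and 3.23 in OF livers of batch 2. *furina*, which encodes a protease of the family that trims ZP proteins, read 9.27 to 10.83 on all arrays, while the related *furinb* was lowest on the first OF array of batch 1, at 4.29, and highest on the second OF array of batch 2, at 7.80. ZP-domain genes of other tissues, *zpld1a*, *zpld1b*, *umodl1* and *cuzd1.1*, stayed between 1.17 and 2.41, and *tecta* between 2.16 and 3.39.

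Most genes known from the oocyte and germ line were brightest on the array that was brightest for the ZP genes. Their list had 19 of 20 genes measured, of which 14 were called higher in batch 1 (3.26% of all clusters) and 0 in either direction in batch 2 (2.55% higher and 3.12% lower), with medians of 2.92 and −0.41. The count was lower without either control sample of batch 1, in fits that leave 1 control array. The array median of the list was 1.89 and 2.05 in control and 6.28 and 3.70 in OF livers of batch 1, and 2.67 and 3.35 in control and 2.86 and 1.99 in OF livers of batch 2. The first OF array of batch 1 was the highest for 17 of 19 genes and the lowest, at 1.53, for the meiotic gene *sycp3*. The summed linear signal of the list ran from 73.5 to 83.3 on the control arrays of batch 1 and the second OF array of batch 2, and was 4051 and 763 on the OF arrays of batch 1 and 165 to 439 on the other 3.

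*btg4*, which in mouse is needed for clearing maternal mRNA in the maturing egg, read 1.68 and 2.05 in control and 9.87 and 6.96 in OF livers of batch 1. In batch 2 it read 4.92 and 7.16 in control and 6.65 and 1.72 in OF livers. *zar1*, a gene of oocyte RNA storage, read 1.89 and 2.11 in control and 8.11 and 6.97 in OF livers of batch 1, and 3.31 and 4.22 in control and 5.65 and 1.74 in OF livers of batch 2. *buc*, which organises the Balbiani body of the zebrafish oocyte, reached 7.62 and 4.92 in OF livers of batch 1 but only 1.14 to 2.28 in batch 2. The part of oocyte RNA in the ZP signals was not tested.

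Of 9 ovarian follicle cell genes measured, 1 (*cyp11a1*, the first enzyme of steroid synthesis) was called higher in batch 1, by 2.54, where 3.26% of all clusters were. In batch 2 0 of 9 were called higher, where 2.55% of all clusters were. *cyp19a1a*, the aromatase of the ovary that makes estrogen, read 1.41 to 2.22 on the 8 arrays, and *fshr*, the receptor of follicle-stimulating hormone, 1.49 to 2.29. The summed linear signal of the list was 30.7 to 39.4 on 3 arrays of batch 1 and 61.9 on its first OF array, and 52.9 to 71.1 in batch 2. Single genes weigh heavily in these sums. The brightest gene was *cyp11a1* on the first OF array of batch 1, at 4.74, and *lhcgr* on every array of batch 2. *lhcgr* read 4.24 to 5.08 in batch 2 and 2.26 to 3.13 in batch 1.

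Estrogen-responsive liver genes were also higher with OF in batch 1 but had another order of arrays. Of 9 listed, 5 were measured as single genes (*vtg2*, *vtg3*, *vtg6*, the estrogen receptor *esr1* and *nots*, an aspartic protease of the liver), and 5 of 5 were called higher in batch 1, against 3.26% of all clusters, with a median change of 8.41. In batch 2 0 of 5 were called, against 2.55% of all clusters higher and 3.12% lower, with a median of −5.49. *vtg2* read 1.56 and 2.23 in control and 12.74 and 13.30 in OF livers of batch 1, and 13.41 and 13.55 in control and 13.52 and 1.27 in OF livers of batch 2. Its 3 highest arrays were those of batch 2 other than the second OF array, and this held for 5 of 5 genes of the list. The first OF array of batch 1, highest for every ZP gene, ranked the fifth of 8 for each of the 5. The arrays that were low for the estrogen-responsive genes, both controls of batch 1 and the second OF array of batch 2, were also the lowest 3 for *zp3a.2*, *zp3b*, *zp3c*, *zp3* and *zp2.5*. For *zp2.2* the first control array of batch 2 was lower than the second of batch 1.

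**Figure D4:**
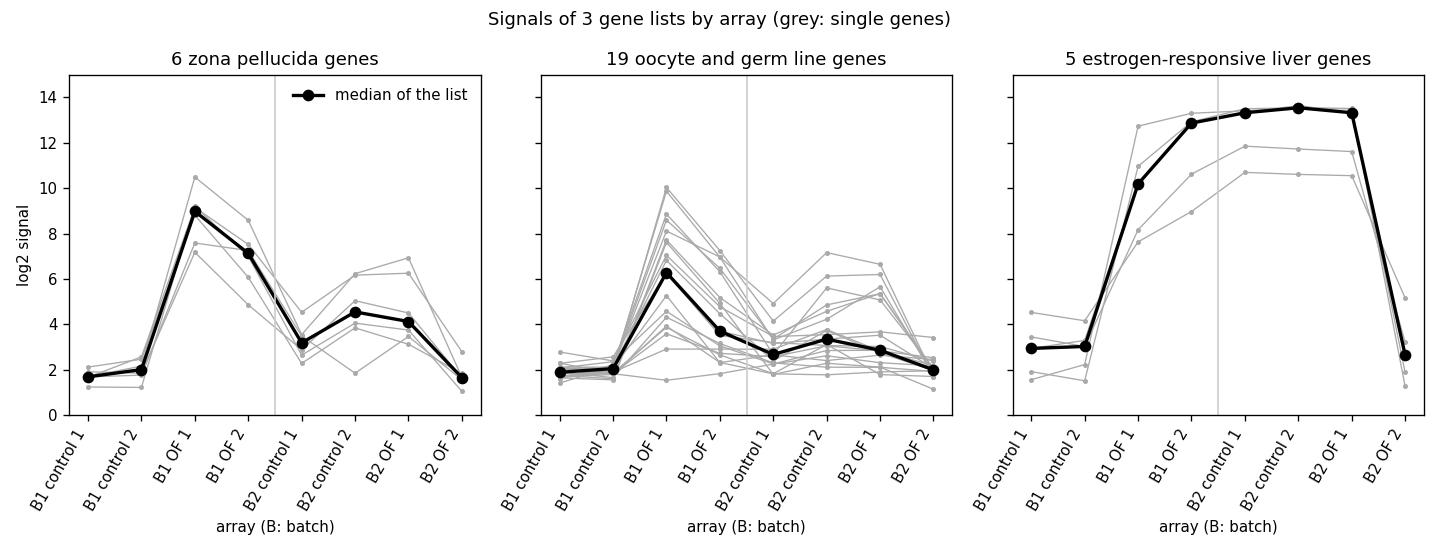
Log2 signal (y axis) on the 8 arrays (x axis; B1 and B2, batches 1 and 2) of the 6 ZP genes, 19 oocyte and germ line genes and 5 estrogen-responsive liver genes, as grey lines for single genes and a black line for the median of the list. Medians of the ZP and the oocyte lists peak on the first OF array of batch 1, at 8.98 and 6.28, while that of the estrogen-responsive list is 10.19 there and 13.33 to 13.55 on 3 arrays of batch 2.

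Likeness over the 8 arrays, given as Pearson's r with no test since arrays share batches and groups, named mostly poorly described genes. Among 8719 genes outside the *zp2* and *zp3* families with a range of at least 2, the most like *zp3a.2* was *zpcx* (r = 0.996), another egg coat gene, followed by the claudin *cldnd* and zgc:103482. For *zp3b* these were *tatdn2*, si:ch1073-263o8.2 and si:dkeyp-50f7.2, for *zp3c* zgc:171977, si:ch211-103b1.2 and si:dkeyp-114g9.1, and for *zp2.5* zgc:152986, zgc:56231 and *retsatl*. The genes most like *zp2.2* were *pif1*, a DNA helicase, *rad52*, of recombination repair, and a gene annotated as sperm-like histone H2A (r of 0.994 to 0.995). *zp3* stood apart: its 3 nearest were *dynll2a*, a dynein light chain, a mucin-2-like gene and *wee2*, a kinase that in mouse holds the oocyte in meiotic arrest, with r of 0.954 to 0.968. In rank order (Spearman's rho) the mucin-2-like gene was less like *zp3*, at 0.571, than *dynll2a*, at 1.0, and *wee2*, at 0.976. Only 5 genes had an r above 0.95 with *zp3*, where 95 to 141 had one with each of the other 5. Between pairs of the 6 ZP genes r ran from 0.775 to 0.986.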

How the data were processed

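Arrays were normalized by the authors (Transcriptome Analysis Console, with GC correction and signal space transformation), who deposited log2 signals per cluster. Their worksheets, used for symbols and annotation, also hold the authors' log2 averages per group and the number of probes of each cluster. The averages matched the table within 0.0151 for 59379 of 59381 (batch 1) and 59384 of 59384 clusters (batch 2). Columns with the authors' own fold changes and p-values were not used. No coordinates are printed, since the sources used here give no genome build for them.

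After leaving out 84 control clusters, 59300 clusters entered the linear models (limma 3.58.1, R 4.3.3), within each batch, over both with batch as a term, and with an interaction. Adjusted p-values are Benjamini-Hochberg values over all clusters. The methods' thresholds (over 2-fold, unadjusted p under 0.05) were used within batches. The script was tested on simulated data. With 2 arrays per group, array number limits the precision. The p-values set each change against the spread between these samples, which limma draws towards that of all clusters.

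The ZP genes and all lists were chosen with earlier results of these data known. The genes named are the 8 ZP symbols, the rest of the family, the list genes and the 3 genes most like each ZP gene. Genes were matched by symbol, and 5 genes of the lists and Bouncer through the Entrez ID. Alternatives were quantile normalization, median centring, a filter on dim clusters, the mean of all clusters of a gene, the replicate number as a block, and leaving out each array. Tables were handled in pandas 2.3.3 under Python 3.11.15, and figures drawn in matplotlib 3.10.9.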

Additional observations from a re-analysis of the deposited data

Results flagged for a closer look

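The change with OF differed between the batches, by the interaction of batch and OF at an unadjusted limma p under 0.05, for 15 of the 16 ZP clusters, where 6.61% of all clusters passed in that direction, and for none of the 16 at an adjusted p. Batch 2 minus batch 1, the difference was −8.21 for *zp3a.2* (adjusted p = 0.224), −7.05 for *zp3b* (0.169), −5.03 for *zp3c* (0.267), −5.86 for *zp3* (0.127), −5.74 for *zp2.2* (0.169) and −7.82 for *zp2.5* (0.139).

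In the rest of the family it was −6.88 for the cluster of zgc:173556 and *zp3.1*, −7.61 for *zpcx*, −5.77 for *zp3a.1*, −6.02 for *zp2l1* and −9.11 for *zp2.6*. Clusters with several *zp2* symbols gave −9.15 (si:dkey-241l7.2 and *zp2.3*), −5.64 (*zp2.3*, *zp2.6* and *zp2.1*), −8.57 (*zp2.6* and si:zfos-1505d6.3) and −8.65 (*zp2.1* and *zp2.5*). The limma adjusted p-values of these 9 clusters lay between 0.139 and 0.279. *zp3.2* did not pass.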

How the results depend on the processing

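The count of ZP genes called higher in batch 1 at the methods' thresholds was 6 of 6 under every alternative that kept all 8 arrays. The mean of all clusters of a gene could not change it, since each of the 6 genes had 1 cluster. At an adjusted p it went from 0 to 1 with quantile normalization and to 4 with dim clusters left out, which left 23293 clusters in the test, and to between 0 and 5 when single arrays were left out (0 to 10 for the 10 family clusters, the highest counts without the second OF array of batch 1). Over both batches the count at an unadjusted p went from 0 to 1 for the 6 genes with dim clusters left out. For the family it went from 0 to 1 with quantile normalization. With single arrays left out these counts ran from 0 to 6 and from 0 to 8, the highest without the second OF array of batch 2. The limit for dim clusters was a log2 signal of 3. The 6 genes lay below it on both control arrays of batch 1, at 1.22 to 2.57. Their means over the 8 arrays were 3.58 to 5.16, above it only through the brighter arrays. The filter is thus tied to the change tested, and the higher counts after it cannot show that the calls are firmer.

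With single arrays left out, the change in batch 2 ran from −3.23 to 2.04 for *zp3a.2*, −2.56 to 0.90 for *zp3b*, −2.33 to 0.54 for *zp3c*, −1.12 to 0.80 for *zp3*, −1.37 to 0.20 for *zp2.2* and −2.30 to 0.40 for *zp2.5*. Fits within a batch then leave 1 array in a group and take their spread from the other group. The batch 1 counts given above without single arrays thus cannot show how firm the calls are. For batch 2 no such counts are given. The difference between batches at an unadjusted p was called for 4 to 6 of the 6 genes, the lowest without the second control array of batch 2, where *zp3a.2* and *zp3c* were lost, and at an adjusted p for 0 to 2 family clusters. Batch 2 minus batch 1 ran from −2.50 to 0.74 for *zp3a.2*, −1.32 to 1.11 for *zp3b* and −1.37 to 0.64 for *zp3c*, with 0 to 1 genes called at an unadjusted p. The count of oocyte genes called higher in batch 1 also moved, both down and up, with single arrays left out, in fits that leave 1 array in a group. The causes were not tested.

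Deviations of same-numbered arrays correlated over all clusters at 0.113 in batch 1 and −0.073 in batch 2. The labels give these samples only a shared number, and such values cannot show whether they were paired. Since the replicate number is balanced over control and OF, a block for it cannot alter the size of any change, only its error. With the block 6 of 6 genes were called in batch 1. The difference between batches was called for 5 of 6 at an unadjusted p (not *zp3c*, limma p of 0.0521, adjusted p of 0.345). Probe signals near the floor limit the size of the batch 1 changes, and 2 arrays per group limit every call.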
